A study of Homo sapiens with 6 samples.

Results

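The genes examined encode 7 transcription factors that set and keep the identity of gut epithelium: CDX1 and CDX2, HNF4A and HNF4G, GATA6, and FOXA1 and FOXA2. They were taken by symbol from a table of 58884 gene identifiers, each symbol matched 1 identifier, and all 7 had a count in at least 1 library. RNA came from liver metastases of SW480 cells, a long established line from a human colorectal cancer, grown in NSG mice after injection into the portal circulation. NSG mice lack T, B and natural killer cells but keep liver, stromal and myeloid cells of their own. The tumour cells carried a control guide RNA (sgCTRL, 3 libraries) or a guide RNA against ITPR3, the gene of the type 3 inositol trisphosphate receptor (sgITPR3, 3 libraries). In both groups the livers were digested, tumour cells were enriched on a density gradient and mouse cells were depleted before 3' tags of polyadenylated RNA were sequenced. The labels give neither the number of guides or clones, the age of the mice and the time of collection, nor whether every library is a separate mouse. The p-values therefore cover the spread among these libraries, which may be technical.

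CDX2, a homeobox protein, is the best known determinant of intestinal as against gastric fate, and CDX1 is its close relative in the crypt. HNF4A and HNF4G are nuclear receptors that hold enterocyte genes on, including those for lipid transport and the brush border, and HNF4A does similar work in the liver. GATA6 is a zinc finger factor of the gut and of colon tumours, and FOXA1 and FOXA2 are forkhead pioneer factors that open chromatin in endoderm and act in the secretory cells of the gut.

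HNF4A can start at either of 2 promoters, of which the downstream one serves the adult liver, and gut epithelium can use both. A 3' tag does not tell which start a transcript had, so the level of HNF4A given below sums over both. The 250 bases before each start are shown as promoter sequence, which lies before the transcript of that start and is not part of it. They are those of RefSeq on the plus strand of GRCh38.p14, at chr20:44355449-44355698 and chr20:44400989-44401238. Capitals mark every match, on either strand, to the letters GATAA (the GATA core).
HNF4A upstream start: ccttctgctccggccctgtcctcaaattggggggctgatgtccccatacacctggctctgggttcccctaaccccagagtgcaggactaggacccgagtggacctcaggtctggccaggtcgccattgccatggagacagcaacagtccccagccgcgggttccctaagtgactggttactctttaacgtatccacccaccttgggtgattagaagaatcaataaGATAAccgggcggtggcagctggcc
HNF4A downstream start: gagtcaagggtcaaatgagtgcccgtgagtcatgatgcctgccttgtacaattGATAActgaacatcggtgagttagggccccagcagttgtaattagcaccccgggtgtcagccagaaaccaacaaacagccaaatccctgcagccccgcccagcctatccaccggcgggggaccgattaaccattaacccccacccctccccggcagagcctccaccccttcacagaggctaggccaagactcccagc
GATAA was found once before each start, 25 bases before the upstream start and 197 bases before the downstream start. Matches were also searched for CAAAG (the HNF4 core), TGTTTNC (forkhead) and TTTANG (CDX), and none of these letters occurred in either window. Over all 35116 promoter windows of this length, 20.4% held GATAA, 42.1% CAAAG, 15.5% TGTTTNC and 26.4% TTTANG. Of the other members, CDX2, GATA6 and FOXA1 have an entry in the table of promoters, and their windows overlap annotated exons and are not shown.

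Libraries held 19140055 to 23943797 counts, and mitochondrial genes took 19.6% to 21.3% of them. Levels are given in CPM (counts per 1000000), over the TMM-scaled library size and not per length. Tests compare them between libraries, and differences in level between genes were not tested. The targeted gene ITPR3 was lower in every sgITPR3 library (39.4 to 46.2 CPM) than in any sgCTRL library (93.9 to 107.5 CPM), and a 3' tag need not lie in the edited part. In SW480 terms, the general epithelial markers were abundant, with EPCAM at 382 CPM and KRT18 at 1255 CPM in sgCTRL, whereas the colon markers CDH17, KRT20, GPA33 and LGALS4 had at most 29 counts in any library. Of 18 hepatocyte markers, 18 had a count. Their summed level was 99.6, 325 and 75.4 CPM in sgCTRL replicates 1 to 3 and 364, 261 and 197 CPM in sgITPR3 replicates 1 to 3, so that sgCTRL replicate 2 lay within the sgITPR3 range. The 8 macrophage markers summed to at most 1.19 CPM and the 5 endothelial markers to at most 0.670 CPM. CD163 and CDH5 had at most 1 count in any library. The 6 fibroblast and stellate markers summed to 6.03 to 6.51 CPM in sgCTRL and 8.61 to 10.7 CPM in sgITPR3, most of it from COL1A1, which was higher in sgITPR3 (log2 fold change 0.48, edgeR adjusted p = 0.0331). The call of COL1A1 ended in 6 of 13 alternatives, with ALB as a covariate and without each library in turn except sgITPR3 replicate 3. LUM was at 0 in all libraries. Host cells here are mouse cells and the counts are of human genes. No source used here says how mouse reads were treated, and those that align to human genes would add to these counts. How much of the hepatocyte, macrophage, endothelial and fibroblast marker levels is host RNA was not tested.

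Setting sgITPR3 against sgCTRL metastases compares the RNA levels of these factors between the bulk libraries of the groups. An effect of the guide, or of a clone if one was used, cannot be told apart from that of ITPR3 targeting here. Of the 7 factors, CDX2, HNF4A, GATA6 and FOXA2 passed the low-count filter, and all 4 of these were higher in sgITPR3. Over all 15804 genes tested, 23.5% were called at an adjusted p under 0.05, with 11.6% called higher and 11.9% called lower. In each of the 4, every sgITPR3 library lay above every sgCTRL library, as was so for 19.6% of the genes tested. GATA6, HNF4A and FOXA2 rose 2.59-fold to 3.57-fold, while CDX2 rose 1.27-fold. CDX1, HNF4G and FOXA1 stayed at a few counts in both groups and could not be tested after the filter. In bulk RNA of this kind, more cells that express a factor and more of its RNA per cell cannot be told apart.

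**Figure D1:**
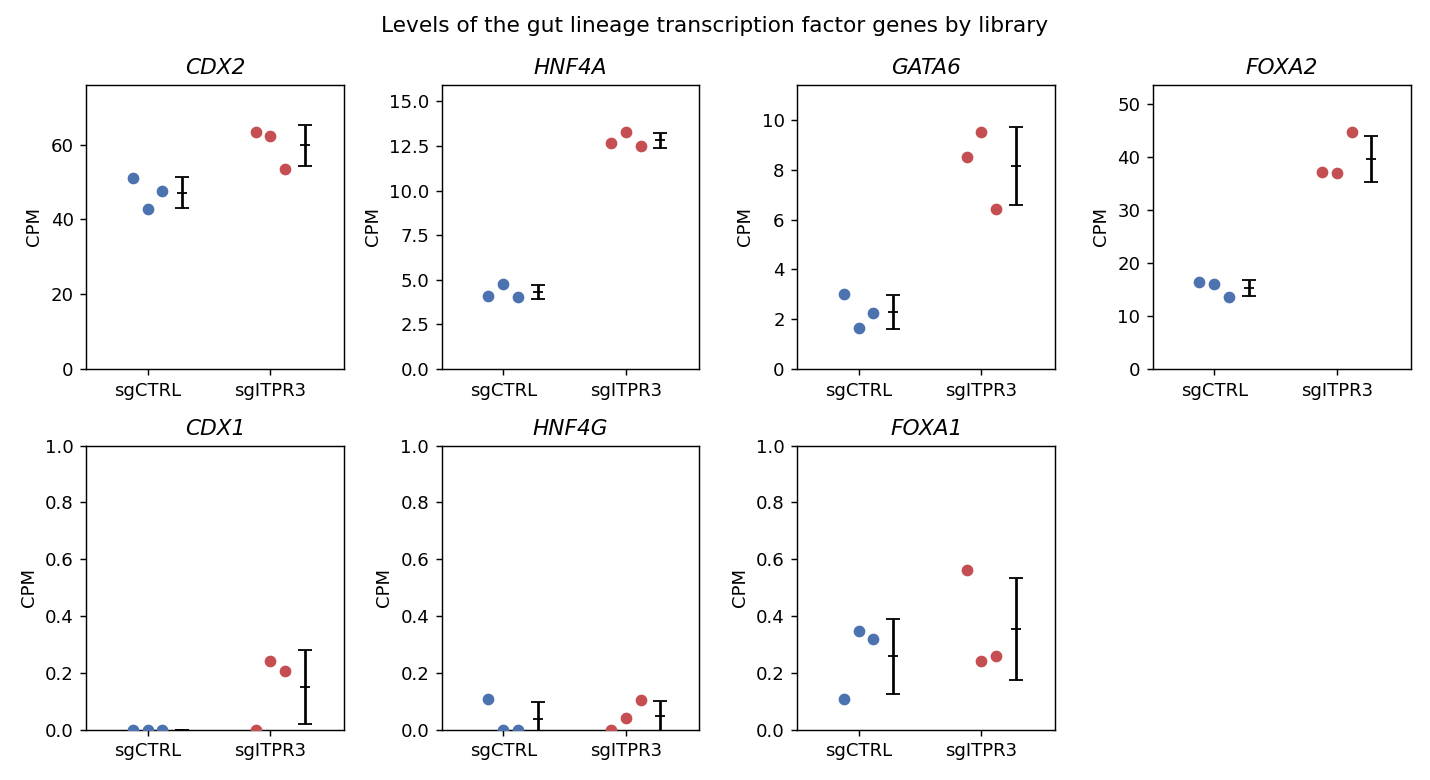
Levels of the 7 genes in CPM (y axis, from 0, with a different scale for each gene), by group (x axis). Each point is a library and the bar beside it is the mean with the SD over 3 libraries. For CDX2, HNF4A, GATA6 and FOXA2 every sgITPR3 point lies above every sgCTRL point, by little for CDX2, and the 3 genes of the lower row stay under 0.6 CPM.

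HNF4A (ENSG00000101076, chromosome 20, 44355700 to 44434596, plus strand in GENCODE 29 on GRCh38) measured 4.09, 4.77 and 4.06 CPM in sgCTRL replicates 1 to 3, against 12.7, 13.3 and 12.5 CPM in sgITPR3 replicates 1 to 3. The groups were far apart, and within each the libraries differed little. These levels rest on 76, 96 and 76 counts and on 293, 328 and 243 counts. HNF4A rose 2.97-fold (log2 fold change 1.57, SE 0.138, edgeR adjusted p = 1.63e-06), which placed it at the 97.7th percentile of all log2 fold changes.

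FOXA2 (ENSG00000125798, chromosome 20, 22581005 to 22585455, minus strand), the forkhead factor of early endoderm, was at 16.4, 16.0 and 13.5 CPM in sgCTRL and 37.2, 36.9 and 44.6 CPM in sgITPR3. No library of either group came near the other group. It rose 2.59-fold, from 15.3 ± 1.54 to 39.6 ± 4.36 CPM (SD, n = 3 each; log2 fold change 1.37, SE 0.107, edgeR adjusted p = 4.79e-07).

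GATA6 (ENSG00000141448, chromosome 18, 22169443 to 22202528, plus strand) was at 3.01, 1.64 and 2.24 CPM in sgCTRL and 8.51, 9.51 and 6.44 CPM in sgITPR3. It varied more within groups than HNF4A or FOXA2, and the lowest sgITPR3 library, replicate 3, was still above the highest sgCTRL library, replicate 1. The rise was 3.57-fold, a log2 fold change of 1.83 with SE 0.229 (edgeR adjusted p = 4.78e-05). The counts behind it were 56, 33 and 42 in sgCTRL and 197, 235 and 125 in sgITPR3.

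CDX2 (ENSG00000165556, chromosome 13, 27962137 to 27971139, minus strand) was at 51.1, 42.8 and 47.6 CPM in sgCTRL and 63.3, 62.4 and 53.6 CPM in sgITPR3. The groups did not overlap, but sgITPR3 replicate 3 was only a little above sgCTRL replicate 1. CDX2 rose from 47.2 ± 4.18 to 59.8 ± 5.40 CPM (SD, n = 3 each), a log2 fold change of 0.34 with SE 0.088 (edgeR adjusted p = 0.0115). Its call ended without sgITPR3 replicate 1 (log2 fold change 0.30, edgeR adjusted p = 0.0598) and without sgITPR3 replicate 2 (0.31, edgeR adjusted p = 0.0617). Leaving out sgCTRL replicate 2, the library of that group with high hepatocyte transcripts, gave 0.27 (edgeR adjusted p = 0.0334).

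The same counts can be written as ratios inside each library, which need no scaling of library size. These 3 pairs were chosen after the values were seen, so their ratios restate the folds above and add no support to them. The log2 ratio of HNF4A to CDX2 counts went up by 1.23, which is 2.35-fold. The ratio of GATA6 to CDX2 went up 2.82-fold and that of FOXA2 to CDX2 2.04-fold. For each pair all 3 sgITPR3 libraries lay above all 3 sgCTRL libraries, and the two-sided exact permutation test gave p = 0.1 (0.1 after adjustment over the 3 pairs), the smallest value that 3 against 3 libraries can give. In sgCTRL the ratio of HNF4A to CDX2 was -3.45 ± 0.253 on the log2 scale and in sgITPR3 -2.22 ± 0.114 (SD, n = 3 each).

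**Figure D2:**
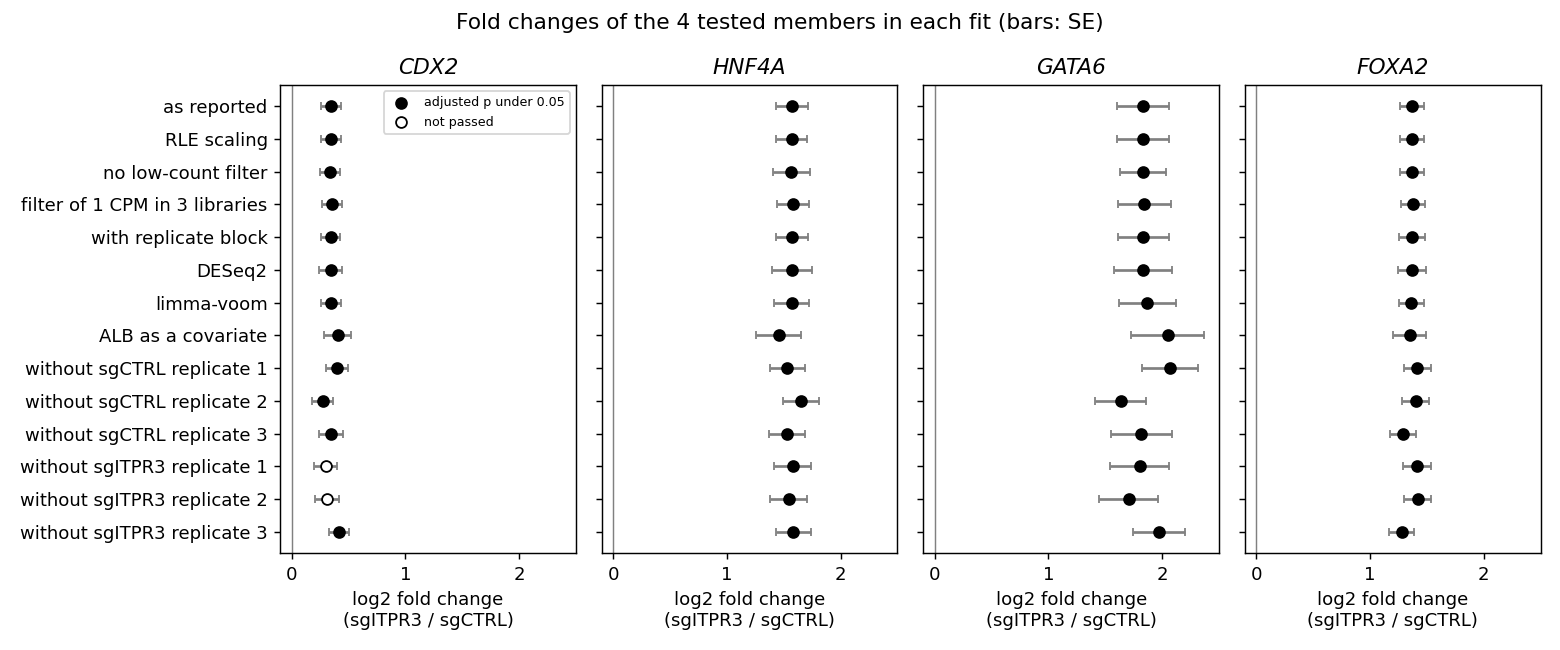
Log2 fold changes of the 4 tested factors (x axis, sgITPR3 over sgCTRL) in the fit as reported and in each alternative (y axis), with bars for the SE. Filled points passed at an adjusted p under 0.05. HNF4A, GATA6 and FOXA2 stay far from 0 in every fit drawn, and CDX2 has open points without sgITPR3 replicate 1 and without sgITPR3 replicate 2.

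The relatives of these factors were hardly detected. CDX1 (ENSG00000113722, chromosome 5, 150166795 to 150184558) had 0 counts in all 3 sgCTRL libraries, which allows up to 0.149 to 0.161 CPM, and 0, 6 and 4 counts in the sgITPR3 libraries. HNF4G (ENSG00000164749, chromosome 8, 75407914 to 75566843) had 2, 0 and 0 counts in sgCTRL and 0, 1 and 2 counts in sgITPR3. FOXA1 (ENSG00000129514, chromosome 14, 37589984 to 37596059) had 2, 7 and 6 counts in sgCTRL and 13, 6 and 5 counts in sgITPR3, so the groups overlapped. A difference was not detectable at this depth: in the fit without a filter the edgeR adjusted p was 0.114 for CDX1, 0.944 for HNF4G and 0.760 for FOXA1. Whether relatives changed unequally was tested on their count ratios, with 0.5 added to each count, and for these 3 pairs the groups overlapped. The log2 ratio of FOXA1 to FOXA2 differed by -0.93 (exact permutation p = 0.2), that of HNF4A to HNF4G by 1.26 (exact permutation p = 0.4) and that of CDX1 to CDX2 by 1.73 (exact permutation p = 0.4), with an adjusted p of 0.4 for all 3. These ratios depend on what is added to the few counts. With 2 added, HNF4A to HNF4G gave 1.58 (exact permutation p = 0.1) and CDX1 to CDX2 gave 0.63 (exact permutation p = 0.4). Leaving out a library gave 0.43 (without sgCTRL replicate 1) to 1.89 (without sgITPR3 replicate 3) for HNF4A to HNF4G. For CDX1 to CDX2 it gave 1.11 (without sgITPR3 replicate 3) to 2.94 (without sgITPR3 replicate 1), and for FOXA1 to FOXA2 -1.46 (without sgCTRL replicate 1) to -0.64 (without sgCTRL replicate 3). Among more distant relatives, CDX4, GATA4 and GATA5 were at 0 in all 6 libraries. FOXA3, the third FOXA gene, had 3, 3 and 3 counts in sgCTRL and 18, 17 and 6 counts in sgITPR3, too few to be tested.

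HNF4A is also a hepatocyte gene, and it need not be the only one of the factors. The hepatocyte transcripts are therefore set beside all 4 tested factors. ALB, the gene of serum albumin, was at 33.8, 169.7 and 21.6 CPM in sgCTRL and 231.6, 152.6 and 111.5 CPM in sgITPR3, so the groups overlapped. In sgCTRL replicate 2 ALB was 6.13 times and CPS1, a urea cycle enzyme of hepatocytes, 8.74 times the mean of the other sgCTRL libraries. Not every hepatocyte marker was raised there: FGB was 4.55 times that mean, but SERPINA1 was 1.09 times, HP 0.925 times and CYP2E1 0.710 times. In that library HNF4A was 1.17 times, FOXA2 1.07 times, CDX2 0.867 times and GATA6 0.625 times that mean. When the fit also held the log2 level of ALB, HNF4A had a log2 fold change of 1.46 (edgeR adjusted p = 4.58e-05), of FOXA2 1.35 (3.14e-06), of GATA6 2.05 (2.34e-04) and of CDX2 0.41 (0.0292). All 4 calls stood in that fit. They also stood without sgCTRL replicate 2. Leaving that library out keeps sgCTRL at 99.6 and 75.4 CPM of summed hepatocyte markers, against 197 to 364 CPM in sgITPR3. In that fit the level of hepatocyte transcripts and group cannot be told apart, and whether the factors follow these transcripts was not tested. Of 13 tested hepatocyte markers, CYP2E1 rose (log2 fold change 1.19, edgeR adjusted p = 0.019; not called without sgCTRL replicates 1 or 2 or sgITPR3 replicates 1 or 3), SERPINA1 fell and 11 did not pass, with a median of 1.01. Without sgCTRL replicate 2, 8 rose and 1 fell, and with ALB in the fit 0 rose and 1 fell. In the fit as reported, 11.6% of all genes rose and 11.9% fell.

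**Figure D3:**
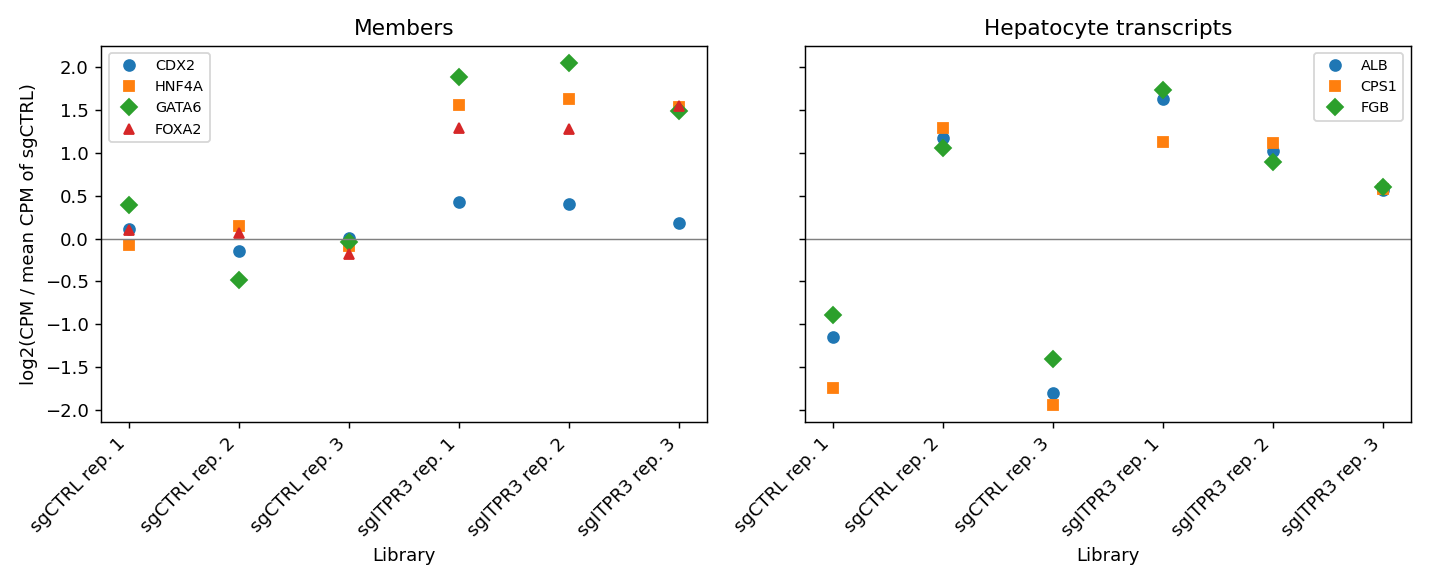
Level of each gene in each library (x axis) as log2 of its CPM over its mean in sgCTRL (y axis), for the 4 tested factors on the left and the hepatocyte transcripts ALB, CPS1 and FGB on the right. In sgCTRL replicate 2 the hepatocyte transcripts drawn lie as high as in sgITPR3 libraries, while the factors lie near the other sgCTRL libraries or, for GATA6, below them. Other hepatocyte markers, not drawn, were not all raised in that library.

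The surroundings of the genes were examined after their values were seen. Within 1 Mb on either side, the other genes tested had a median log2 fold change of 0.00166 around HNF4A (30 genes), -0.0177 around FOXA2 (5 genes), -0.02 around GATA6 (11 genes) and -0.12 around CDX2 (18 genes), against 0.000859 over all genes. Some genes in these windows rose more than the factor itself, such as RIMS4 (log2 fold change 2.11) and SLPI (1.99) around HNF4A and FLT1 (2.07) around CDX2. Within 10 kb of the 4 factors, 4 other genes were tested, of which 3 rose and LINC00543, near CDX2, did not pass (log2 fold change 0.07, edgeR adjusted p = 0.928). Among all genes tested, 11.6% were called higher. A neighbour at a few counts in sgCTRL can pass the filter through its level in sgITPR3. This count therefore does not describe the surroundings. R3HDML-AS1, an antisense RNA gene that lies 514 bases before HNF4A on the opposite strand, rose from 11, 9 and 6 counts to 24, 39 and 36 counts (log2 fold change 1.70, edgeR adjusted p = 0.00778). GATA6-AS1, on the opposite strand to GATA6 and overlapping its first 436 bases, rose from 31, 40 and 21 counts to 68, 71 and 60 counts (log2 fold change 0.89, edgeR adjusted p = 0.0254), a call that ended in 6 of 13 alternatives, with ALB as a covariate and without each library in turn except sgCTRL replicate 2. No source used here gives the strand setting of the counts, so reads of the overlap cannot be assigned to GATA6 or GATA6-AS1 with certainty. URAD, a gene of uric acid breakdown 6574 bases from CDX2, rose from 27, 46 and 52 counts to 151, 172 and 86 counts (log2 fold change 1.46, edgeR adjusted p = 8.19e-04), more than CDX2 itself. PDX1, a homeobox factor of pancreas and duodenum that lies within 1 Mb of CDX2, fell from 7.69 to 4.59 CPM (log2 fold change -0.73, edgeR adjusted p = 0.0171). That call ended without sgCTRL replicate 1, sgITPR3 replicate 1 or sgITPR3 replicate 3. The long non-coding RNA gene LINC00261, 2362 bases from FOXA2, had 0 counts in 5 libraries and 4 counts in sgITPR3 replicate 3.

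Genes whose pattern over the 6 libraries was most like that of each factor were named by a distance: the root mean square difference of log2 CPM, each gene centred on its own mean, among genes of at least 5 CPM. The libraries fall into 2 groups, so a small distance mostly means a like difference between groups. Nearest to HNF4A were PALM (distance 0.0614), MEIS3 (0.0784) and SH3BGRL2 (0.0869). PALM encodes a membrane-bound phosphoprotein and rose from 9.65 to 27.0 CPM, and MEIS3, a homeobox gene, rose from 10.5 to 30.7 CPM. Nearest to FOXA2 were KIF26A (0.0962), HR (0.124) and PDP1 (0.138). Nearest to GATA6 were LCP2 (0.145), LAMP5 (0.170) and CASP4 (0.176), the last encoding an inflammatory caspase that rose from 4.20 to 15.0 CPM. Nearest to CDX2 were USP32 (0.0441), POMGNT2 (0.0455) and PPP1R3F (0.0457).

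Other transcription factors of the gut went both ways. Of 32 listed, 28 had a count and 18 were tested. Among the 18, 7 rose, 2 fell and 9 did not pass (over all genes 11.6% rose and 11.9% fell). The 18 had a median log2 fold change of 0.33. EHF, an ETS factor of epithelia, rose from 15.6 to 45.5 CPM (log2 fold change 1.55, edgeR adjusted p = 4.90e-07). KLF5, a factor of dividing crypt cells, rose from 69.2 to 91.7 CPM (log2 fold change 0.41, edgeR adjusted p = 7.26e-04), and PRDM1, a repressor known from the fetal gut, rose from 6.54 to 11.1 CPM. The vitamin D receptor gene VDR fell from 221 to 132 CPM (log2 fold change -0.74, edgeR adjusted p = 2.01e-06), and ELF3, another epithelial ETS factor, fell from 22.8 to 17.7 CPM, a call that ended in the fit with ALB and without sgCTRL replicate 3 or sgITPR3 replicate 2. In the fit with ALB, 3 of the list rose and 1 fell, and without sgCTRL replicate 2 these numbers were 10 and 4. Without sgITPR3 replicate 2 they were 4 and 1, and without sgCTRL replicate 3 they were 5 and 1. ATOH1, the factor of secretory fate, had at most 2 counts in any library.

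Of 11 factors of other endoderm organs, 6 were tested. Among the 6, 2 rose, 1 fell and 3 did not pass (over all genes 11.6% rose and 11.9% fell). NKX6-1, known from pancreatic beta cells, rose to 4.30 CPM in sgITPR3 (log2 fold change 1.84, edgeR adjusted p = 5.82e-05), and PROX1, which is also in the gut list, rose from 90.3 to 118 CPM (edgeR adjusted p = 0.00378). The call of PROX1 ended with ALB as a covariate, which left 1 of the list higher. The factor that fell was PDX1, whose call ended without each of the 3 libraries named above in turn. HHEX was measured at 12.4 and 11.2 CPM (edgeR adjusted p = 0.427).

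Genes that CDX factors are known for were mostly too low to test. Of 27 CDX and brush border genes, 17 had at most 10 counts in every library and 7 were tested. Of the 7, 3 rose, 1 fell and 3 did not pass (over all genes 11.6% rose and 11.9% fell). A gene can pass the filter through a high level in a single group, so the numbers for the 7 do not describe the whole list. VIL1, the gene of the microvillus protein villin, had 51, 83 and 50 counts in sgCTRL and 837, 942 and 698 counts in sgITPR3. MUC13, a membrane mucin, had 28, 51 and 24 counts in sgCTRL and 225, 231 and 155 in sgITPR3, and USH1C, which encodes the harmonin scaffold of microvillus tips, rose from 59.1 to 79.5 CPM (edgeR adjusted p = 0.00337), a call that ended in the fit with ALB. Without sgCTRL replicate 2, 5 of the list rose. EZR, the gene of the membrane linker ezrin, fell from 324 to 228 CPM (edgeR adjusted p = 3.82e-04). SI, GUCY2C and CA1, genes of mature intestinal cells, were at 0 in all libraries.

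Of 20 HNF4 and lipid transport genes, 12 were tested, with a median log2 fold change of 0.96. Among the 12, 3 rose, 2 fell and 7 did not pass (over all genes 11.6% rose and 11.9% fell). Here too a gene can pass the filter through its level in a single group, so the median does not describe the whole list. The same holds for the other lists of which only a part was tested. FABP1, a fatty acid binding protein of enterocytes and hepatocytes, had 17, 62 and 5 counts in sgCTRL and 316, 221 and 121 counts in sgITPR3 (log2 fold change 2.73, edgeR adjusted p = 7.38e-04). Its log2 fold change was 1.61 in the fit with ALB and 4.02 without sgCTRL replicate 2. TM4SF5, a tetraspan membrane protein gene, rose from 2.88 to 7.63 CPM (edgeR adjusted p = 2.45e-04). SERPINA1, the alpha-1 antitrypsin gene, fell from 43.3 to 13.9 CPM (log2 fold change -1.64, edgeR adjusted p = 1.51e-07), and ACSL5, which activates fatty acids, fell from 15.9 to 9.33 CPM (edgeR adjusted p = 8.44e-04). Without sgCTRL replicate 2, 8 of the list rose and 2 fell. SERPINA1 and TTR are in both lists.

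Of 20 enteroendocrine genes, 6 were tested, and 5 rose, 0 fell and 1 did not pass (over all genes 11.6% rose and 11.9% fell). As above, a gene can pass the filter through its level in sgITPR3, so the tested genes do not stand for the enteroendocrine or the goblet list. The granin genes SCG3, CHGB and CHGA had log2 fold changes of 3.38, 2.15 and 3.48, and the homeobox gene ISL1 rose from 2.12 to 4.12 CPM (edgeR adjusted p = 0.00558). The fate factors NEUROG3, NEUROD1 and INSM1 had at most 1 count in any library. Of 16 goblet and secretory genes, 2 were tested: TFF3, the trefoil peptide gene, rose, and ST6GALNAC1 did not pass (log2 fold change 1.11, edgeR adjusted p = 0.0549) but was called higher in 5 of 13 alternatives, among them the fit without sgCTRL replicate 2.

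BMP4, which GATA6 is known to repress in colon adenomas, rose from 24.1 to 67.8 CPM (log2 fold change 1.49, edgeR adjusted p = 4.28e-08). Of the 13 stem cell and BMP genes, 8 were tested. Among the 8, 4 rose, 2 fell and 2 did not pass (over all genes 11.6% rose and 11.9% fell). The Eph receptor genes EPHB3 and EPHB2 went apart, with log2 fold changes of 1.41 and -0.57 (edgeR adjusted p = 9.51e-05 and 2.36e-04), and the hyaluronan receptor gene CD44 fell by 0.49 on the log2 scale. LGR5, the crypt stem cell receptor, had 1, 1 and 0 counts in sgCTRL and 6, 6 and 16 counts in sgITPR3 and was not tested.

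Most general epithelial genes tested were not called higher. Of 8 tested epithelial and colon markers, 4 fell, 1 rose and 3 did not pass (over all genes 11.9% fell and 11.6% rose). The markers had a median log2 fold change of -0.35. KRT19 fell from 535 to 303 CPM (log2 fold change -0.82, edgeR adjusted p = 1.04e-05), and KRT8, CLDN4 and EPCAM fell by 0.39, 0.41 and 0.32 on the log2 scale. The marker that rose was CLDN3, from 18.1 to 26.5 CPM (edgeR adjusted p = 0.0363). The rise of CLDN3 ended with DESeq2, in the fit with ALB and without sgCTRL replicates 1 or 3 or sgITPR3 replicates 2 or 3. In the fit with ALB 5 fell, and without sgCTRL replicate 1 or sgITPR3 replicate 3 only 2 fell. KRT19 and CLDN4 were called lower in all 13 alternatives, KRT8 in 9 and EPCAM in 10.

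**Figure D4:**
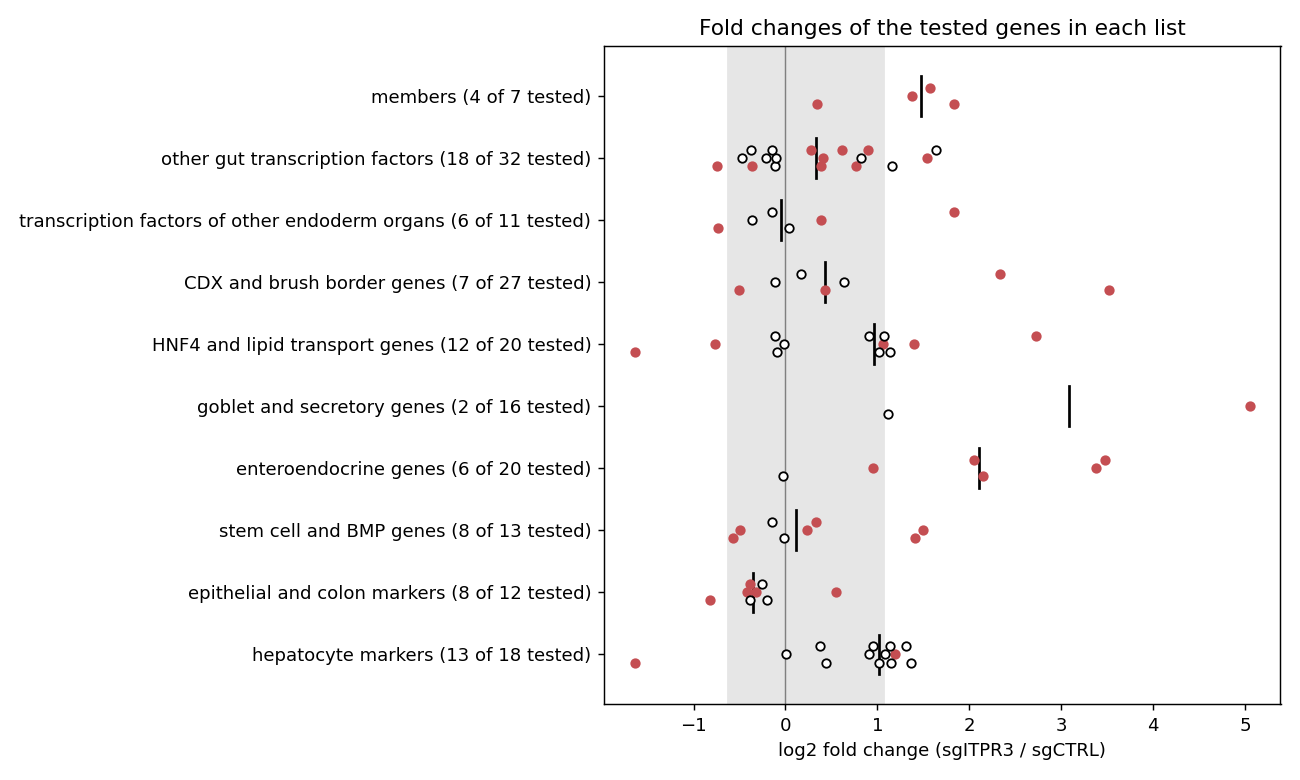
Log2 fold changes (x axis, sgITPR3 over sgCTRL) of the tested genes of each list (y axis), with filled points for an adjusted p under 0.05, open points for genes that did not pass and a vertical line for the median of the list. The grey band runs from the 5th to the 95th percentile of all tested genes, -0.62 to 1.07. HNF4A, GATA6 and FOXA2 lie to the right of the band and CDX2 inside it.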

How the data were processed

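RNA of 6 libraries was compared, 3 sgCTRL and 3 sgITPR3, grouped by their labels. The authors deposited raw counts per gene. STAR 2.6.0a, featureCounts 1.6.3, DESeq2 and GRCh38 are named in the submitters' processing notes. No source used here gives the annotation release, the strand setting or how mouse and multiply aligned reads were treated, and mouse reads that align to human genes would add to their counts. Positions are those of GENCODE 29.

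Counts were fitted over the whole table with R 4.3.3 and edgeR 4.0.16 (filterByExpr with a minimum count of 10, TMM scaling, quasi-likelihood F test), with Benjamini-Hochberg adjustment over all 15804 genes tested and a threshold of 0.05. The SE is the absolute log2 fold change over the square root of F. A floor of 3 counts is 0.121 to 0.161 CPM. Intervals and floors cover counting error only. Ratios of counts used a pseudocount of 0.5.

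The members and gene lists were chosen with earlier results of these data known. From each list the text names up to 4 tested genes with the smallest p and a mean of at least 1 CPM, genes that passed against most of their list, and the 3 nearest patterns per member. Other genes, among them neighbours and genes at a few counts, were named after their values were seen.

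The fits were repeated with DESeq2 1.42.0, with limma-voom (limma 3.58.1), with RLE scaling, without the filter or with at least 1 CPM in 3 libraries, with replicate numbers as a block, with the level of ALB as a covariate and without each library in turn. On simulated data with 200 changed genes among 15804, 55.0%, 73.0% and 95.0% of changes of 1.5-fold, 2-fold and 4-fold were recovered, and 8.33%, 11.5% and 9.95% of the calls were false, above the nominal rate. Replicates differed by more than sampling noise (chi-square per degree of freedom 6.08 to 11.5).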

Additional observations from a re-analysis of the deposited data

How the results depend on the processing

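HNF4A, GATA6 and FOXA2 were called higher in all 13 alternative fits, with log2 fold changes of 1.46 to 1.65, 1.63 to 2.07 and 1.28 to 1.42. CDX2 was called in 11 of them. Leaving out a library gave 0.27 to 0.41, with adjusted p from 0.00692 to 0.0617. The count of genes called was 3717 as reported, 1992 with ALB as a covariate and 2331 to 4261 with a library left out, lowest without sgITPR3 replicate 2. Of the 17 counts over the gene lists that were above 0, 178 values under these alternatives stayed within 1.5 times and 43 did not. CDX1, HNF4G and FOXA1 could be fitted only without a filter. The replicate numbers of the labels showed no sign of pairing the libraries: deviations of libraries with the same number correlated at -0.05, 0.01 and 0.10. Libraries with different numbers correlated at -0.118 to 0.115. With so few libraries per group, this check cannot exclude a pairing. With the number as a block, 3877 genes were called, and the log2 fold changes were 0.34 for CDX2, 1.57 for HNF4A, 1.83 for GATA6 and 1.37 for FOXA2. A block cannot move the relatives' ratio differences, and its exact permutation p was 0.5, 0.75 and 0.5. With 2 added to each count they were 0.63 for CDX1 to CDX2, 1.58 for HNF4A to HNF4G (exact permutation p = 0.1) and -1.07 for FOXA1 to FOXA2. Without a library they ran from 1.11 to 2.94, from 0.43 to 1.89 and from -1.46 to -0.64. At 1 count per 0.0405 to 0.0538 CPM, factors at a few counts cannot be compared.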

Other observations

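Several goblet cell genes were seen mostly in a single library. In sgITPR3 replicate 2, AGR2, which helps fold mucins, had 58 counts, the secreted mucin gene MUC2 had 17, ZG16 and REG4 had 15 each and SPINK4 had 7. In the other 5 libraries these 5 genes had at most 3 counts. OLFM4, a marker of crypt stem cells, had 20 counts in the same library and at most 1 in any other. The levels of HNF4A, FOXA2 and CDX2 in that library, 13.3, 36.9 and 62.4 CPM, were close to those of sgITPR3 replicate 1, at 12.7, 37.2 and 63.3 CPM. GATA6 was highest in sgITPR3 replicate 2, at 9.51 CPM, against 8.51 and 6.44 CPM in sgITPR3 replicates 1 and 3. CDX1 had 6 counts in sgITPR3 replicate 2, against 0 and 4 counts. Other genes of mature gut cells were also seen mostly in 1 library each: SST, the somatostatin gene, had 16 counts in sgITPR3 replicate 1 and SLC26A3, an anion exchanger of the colon surface, had 23 counts in sgITPR3 replicate 3, against at most 2 in any other library. These genes were named after their values were seen, and none was tested.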
